A study of Mus musculus with 3 samples.

Results

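Border-associated macrophages were read from single-cell RNA counts of myeloid cells sorted as CD11b+ CD45+ from mouse brain. Members were selected on the measured counts themselves. A barcode with at least 500 UMIs (counted transcript molecules) was taken as a border-associated macrophage when Mrc1, Pf4, Ms4a7, Cbr2 and F13a1 together had at least 4 UMIs from at least 2 of these genes and outnumbered P2ry12, Tmem119 and Sparc, genes of microglia. Cells with S100a8 and S100a9 at 1% or more of their UMIs, as in neutrophils, or with at least 3 UMIs of Plac8, Ccr2 and Ms4a4c, as in monocytes, were left out. The rule found 66 cells among 11264: 33 of 4340 in the adult wild-type mouse library WT 1, 25 of 4667 in the adult library WT 2, and 8 of 2257 in the library of an MHC class II-deficient mouse, whose label also states that CD4 T cells are almost lacking. The sources used here give neither the allele nor the age of the deficient mouse. With 1 deficient library every p-value rests on how the 2 WT libraries differ and on spread pooled over genes.

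Border-associated macrophages live in the meninges, the choroid plexus and the spaces around vessels, outside the parenchyma that microglia occupy. They take up debris and macromolecules through scavenger and lectin receptors such as Mrc1, Cd163, Stab1 and Lyve1, and part of them presents antigen on MHC class II. A class II molecule is a pair of an alpha chain (H2-Aa) and a beta chain (H2-Ab1, H2-Eb1), assembled on the invariant chain Cd74 and loaded with peptide by H2-DM (H2-DMa, H2-DMb1), and Ciita switches these genes on.

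The starts of class II region genes are shown because H2-Aa, H2-Ab1 and H2-Eb1 defined the split of the WT members described below. H2-DMa and H2-DMb1 passed the test across that split. The sequences are the 150 bases just before the transcript start, from RefSeq on GRCm38.p6, read 5′ to 3′ on the gene's own strand; 3 of 5 genes looked for had 1 entry each, and H2-Ab1 and H2-DMa are named only. Capitals mark CCAAT or its reverse complement ATTGG, the core letters of the Y box. H2-Aa lies on chr17:34287824-34287973 (minus strand), H2-Eb1 on chr17:34305717-34305866 (plus strand) and H2-DMb1 on chr17:34153041-34153190 (plus strand).
H2-Aa: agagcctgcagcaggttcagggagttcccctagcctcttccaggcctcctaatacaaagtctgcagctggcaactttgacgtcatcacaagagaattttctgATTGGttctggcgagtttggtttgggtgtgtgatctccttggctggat
H2-Eb1: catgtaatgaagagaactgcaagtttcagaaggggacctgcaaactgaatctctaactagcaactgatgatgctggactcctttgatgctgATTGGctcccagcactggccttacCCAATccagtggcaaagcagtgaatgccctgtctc
H2-DMb1: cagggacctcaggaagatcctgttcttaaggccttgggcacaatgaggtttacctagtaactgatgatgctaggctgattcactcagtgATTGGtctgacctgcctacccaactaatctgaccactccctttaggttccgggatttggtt
ATTGG began 48, 59 and 61 bases before the starts of H2-Aa, H2-Eb1 and H2-DMb1, and H2-Eb1 held CCAAT as well, 35 bases before its start. Of 32851 windows of the same length, 24.5% held these letters on either strand. The longest run of letters that H2-Eb1 and H2-DMb1 shared, AACTGATGATGCT, began 89 and 92 bases before their starts and stood in no other window on either strand (2 of 32851). The run was looked for after the sequences had been seen, and a match of letters is a description, not a binding site.

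Members made up 0.760% of the cells of WT 1, with an exact (Clopper-Pearson) 95% interval of 0.524 to 1.07. Their share was 0.536% for WT 2 (0.347 to 0.790) and 0.354% for the deficient mouse (0.153 to 0.697). These intervals overlap and hold counting error alone, and the difference between the shares was not tested. Cbr2 is not listed for the deficient library, so its cells could meet the rule on Mrc1, Pf4, Ms4a7 and F13a1 only. Member cells held a median of 4332, 4217 and 4136 UMIs, and 166287, 122270 and 30246 UMIs in all, so the deficient sum is the least precise. The label was checked on Apoe, a lipid carrier of macrophages that the rule did not use. Apoe stood at 40947 CPM (UMIs per 1000000) in members of WT 1, 42758 in WT 2 and 44370 in the deficient library, against 547, 637 and 562 in microglial reference cells, and every one of the 66 cells held Apoe. Genes that define other cells were absent or low in the WT members. Flt3, Itgax and Ccr7 of dendritic cells, Ly6c2 of monocytes and Cd79a of B cells had no UMI, and Cd79a is not listed for WT 2. Zbtb46 and Cd209a of dendritic cells had 4 and 6 UMIs in WT 1 and 0 and 2 in WT 2. Cd79b of B cells had 2 in each, and Sall1 of microglia 7 and 5. The monocyte list summed to 956 and 662 CPM in WT 1 and WT 2, against 131 and 80.1 in reference cells.

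Cells near the edges of the rule were counted, and those nearest the marker limit in WT were mostly class II-rich, as defined below. In WT 1 and WT 2 no member had a sum of 4 or 5 over the marker genes. In each, 1 cell missed the rule with a sum of 3, and it was class II-rich. Class II-rich members held a median marker sum of 13.5 in WT 1 and 18 in WT 2, against 42 and 39 in class II-poor members. The limit on monocyte genes left out 14, 11 and 2 cells that met every other condition, of which 7 in WT 1 and 5 in WT 2 were class II-rich. Among them, the 2 cells in each WT library with a monocyte sum of 3 or 4 were all class II-rich. The limit on microglial genes left out 7, 15 and 0. Of the members kept, 7 in WT 1 and 4 in WT 2 still held 10 or more microglial UMIs (17 to 54), at median depths of 8180 and 8284.5 UMIs against 3906.5 and 3868 in the others, and no deficient member did. No doublet caller was run. No barcode of a member occurred in another library, while libraries shared 13 to 30 barcodes in pairs.

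**Figure D1:**
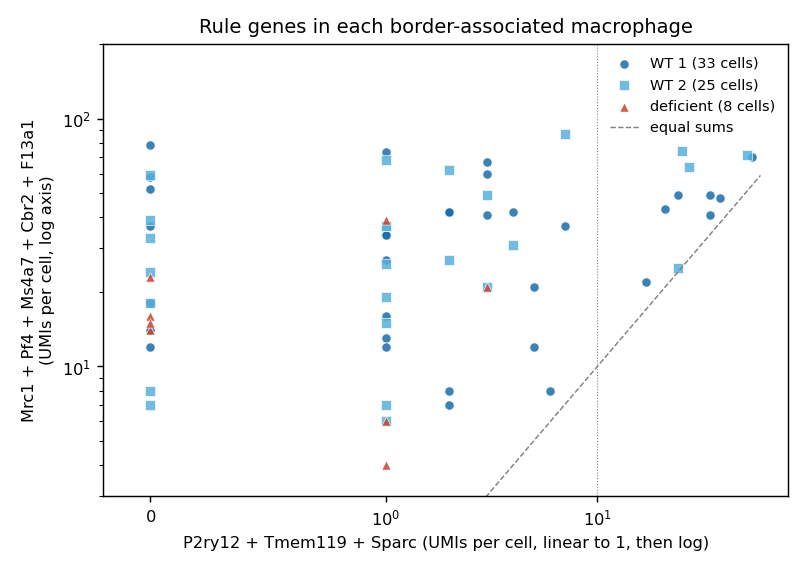
Each point is 1 border-associated macrophage: UMIs of Mrc1, Pf4, Ms4a7, Cbr2 and F13a1 (vertical, log axis) against UMIs of P2ry12, Tmem119 and Sparc (horizontal, linear to 1, then log), coloured by library. The 11 WT cells to the right of the dotted line at 10 UMIs carry both sets, and all 8 deficient cells lie at 3 microglial UMIs or fewer.

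The genes highest in these cells against microglial reference cells are given as a description, since the rule made the contrast. Among the marker genes, Pf4, a platelet-type chemokine, stood at 3771, 3844 and 2380 CPM in WT 1, WT 2 and the deficient library, and Mrc1, the mannose receptor, at 1564, 1709 and 860. Reference cells held at most 8.92 CPM of either. The 20 leading genes held the 5 marker genes of the rule and 15 others. Receptors were Lyve1, the hyaluronan receptor (253 CPM in WT 1 and 221 in WT 2), Cd163, the haemoglobin scavenger receptor (253 and 221), and Mgl2, a galactose lectin (331 and 474). All were at or below 0.576 CPM in reference cells. Secreted factors were the chemokine genes Ccl7 (5124 and 3026 CPM) and Cxcl2 (6465 and 8653) and the growth factor Bmp2 (343 and 270).

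Interferon-inducible p200 genes Ifi203, Ifi207 and Mndal were among the leaders too, with Ifi207 at 668 and 712 CPM, although reads of this family can be split among near-identical copies. The antigen presentation genes H2-Aa, H2-Ab1, H2-Eb1 and Cd74 completed the group with Serpinb8 and Pla2g7. Monocyte cells of WT 1 and WT 2 held more of these 4 genes than the members (H2-Aa 6267 and 7450 CPM against 3867 and 3509) and no UMI of Lyve1, Cbr2, Cd163 or Bmp2.

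**Figure D2:**
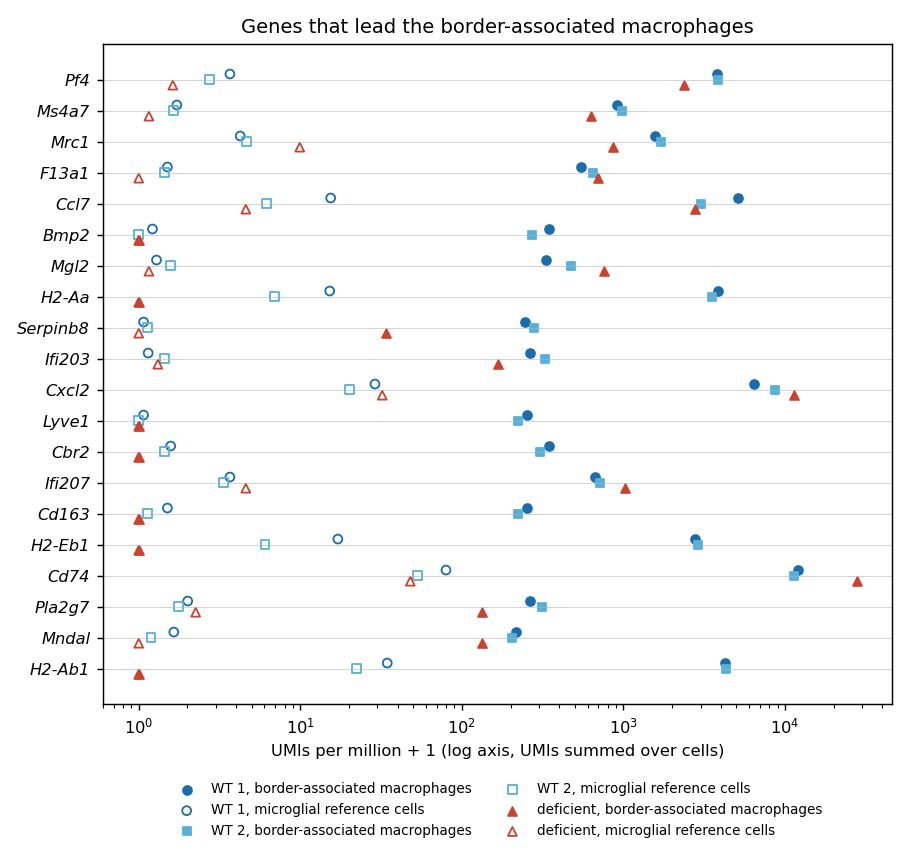
CPM plus 1 (log axis) of the 20 genes that lead the border-associated macrophages (filled) over microglial reference cells (open) in each library. Filled points lie far to the right in both WT libraries, and Bmp2, Lyve1, Cbr2, Cd163 and the 3 classical class II genes lie at 0 in the deficient members. None of these genes at 0 is listed for the deficient library.

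Among WT members, class II expression was close to all or none. Cells with H2-Aa, H2-Ab1 and H2-Eb1 at 1% or more of their UMIs were called class II-rich, and cells under 0.2% class II-poor. WT 1 held 12 rich cells (36.4%, exact 95% interval 20.4 to 54.9), 19 poor cells and 2 between, and WT 2 held 8 rich (32.0%, 14.9 to 53.5), 15 poor and 2 between. In the rich cells the 3 genes took 1.26 to 5.83% of UMIs in WT 1 (median 3.57) and 1.41 to 5.81% in WT 2 (median 3.91). The highest poor cell held 0.0455% in WT 1 and 0.115% in WT 2. All 20 rich cells also held Cd74 at 1% or more of UMIs, and 1 further WT 1 cell, with class II at 0.970%, did so.

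**Figure D3:**
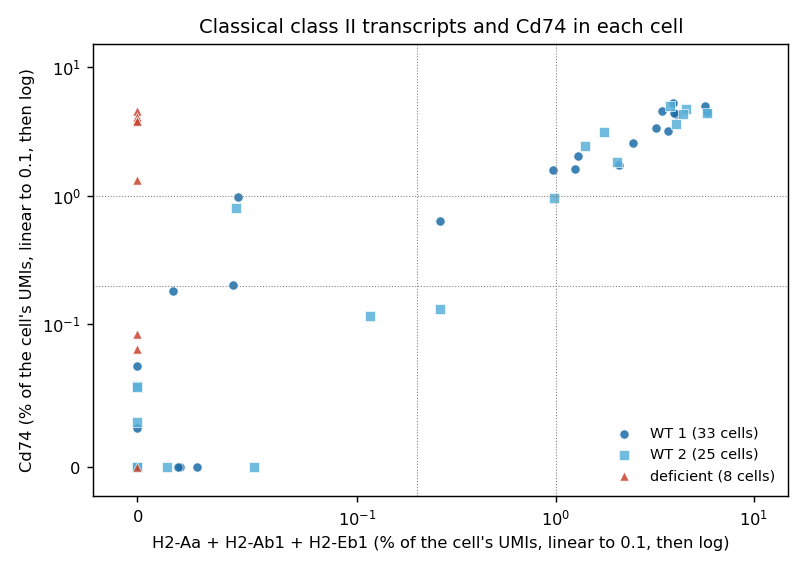
Share of UMIs from Cd74 (vertical) against the share from H2-Aa, H2-Ab1 and H2-Eb1 (horizontal) in each of the 66 cells, both axes linear to 0.1% and then log, with dotted lines at 0.2% and 1%. WT cells gather at both ends of the diagonal. H2-Aa, H2-Ab1 and H2-Eb1 are not listed for the deficient library, and its 8 cells are drawn with no share from them, 5 with Cd74 above 1%.

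Class II-rich and class II-poor WT members were then compared gene by gene, with UMIs summed per library and class, the library as a block and the 3 splitting genes left out (edgeR's quasi-likelihood test, with p adjusted by Benjamini-Hochberg and a threshold of 0.05). Of 1055 genes tested, 17 passed (1.61%): 7 were higher in rich cells (0.664%) and 10 lower (0.948%), the latter including the rule gene Ms4a7. Rich cells carried more of the class II loading machinery, the chemokine Ccl4, Tlr2 and Tnf. Poor cells carried more of the endocytic receptor Lyve1, the iron exporter Slc40a1, and the chemokine genes Ccl24 and Ccl7.

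Of the class II presentation list, 5 of 15 measured genes could be tested, 3 were higher and none lower, with a median log2 fold change of 2.68 against -0.04 over all genes. Cd74 stood at 30191 and 34658 CPM in the rich cells of WT 1 and WT 2 and at 711 and 415 in the poor cells, which is 5.90 ± 0.53 (SE) on the log2 scale (adjusted p = 1.5e-24). H2-DMa stood at 938 and 1190 CPM in rich and 152 and 93.6 in poor cells, 3.08 ± 0.42 (adjusted p = 1.6e-10), and H2-DMb1 at 888 and 866 against 112 and 174, 2.68 ± 0.42 (adjusted p = 7.1e-08). The groups did not overlap for any of them, which held for 42.7% of all genes tested. Ciita was too low to be tested: its 10 and 4 UMIs all lay in rich cells, at least 8.27-fold above poor cells, where a count of 3 over both libraries was taken as the limit. Ctss and Lgmn, lysosomal proteases that process antigen and the invariant chain, did not pass, with log2 fold changes of 0.20 ± 0.39 and -0.35 ± 0.37.

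Microglial reference cells give these levels a scale. They held H2-DMa at 285 to 357 CPM and H2-DMb1 at 173 to 205 over the 3 libraries, while Cd74 stood at 46.9 to 78.7. The class II-poor members thus had less H2-DMa (in CPM) than the reference cells of their own library in WT 1 (152 against 285) and in WT 2 (93.6 against 317), which was not tested.

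Of the chemokine and receptor list, 15 of 24 genes were tested, 2 were higher and 2 lower, with a median log2 fold change of 0.29. Ccl4, an inflammatory chemokine, stood at 12258 and 10362 CPM in rich cells and at 5086 and 829 in poor cells, 2.43 ± 0.45 (adjusted p = 1.6e-05). Ccl24, an eosinophil attractant, ran the other way, with 362 and 54.1 CPM in rich cells against 2000 and 1123 in poor cells, -2.86 ± 0.42 (adjusted p = 3.2e-09). Of its 24 UMIs in rich cells, 21 lay in 1 WT 1 cell. Ccl7, a ligand of monocytes, stood at 2402 and 1650 CPM against 7157 and 4012, -1.40 ± 0.41 (adjusted p = 0.044). The library pair differed in size though not in direction for Ccl4 (log2 ratio 1.27 in WT 1 and 3.64 in WT 2).

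Inflammatory genes among the calls were Tlr2, a receptor of bacterial lipoproteins, at 757 and 866 CPM in rich against 122 and 174 in poor cells (2.50 ± 0.42, adjusted p = 9.3e-07), and Tnf at 280 and 785 against 132 and 107 (1.997 ± 0.478, adjusted p = 0.0037). Both rested on few cells in WT 2, where 1 rich cell gave 23 of the 32 UMIs of Tlr2 and 1 gave 22 of the 29 of Tnf, and without members holding 10 or more microglial UMIs the log2 fold change of Tnf was 0.67 (adjusted p = 0.80).

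The scavenger and endocytic receptor list had 16 of 25 genes tested, 2 lower and none higher, with a median of -0.63. Lyve1 had 8 UMIs in rich cells of WT 1, all in 1 cell that also held 24 microglial UMIs, and none in WT 2, against 34 UMIs in 10 of 19 poor cells and 27 in 8 of 15. Its CPM were 132 and 0 in rich and 345 and 361 in poor cells, a log2 fold change of -2.18 ± 0.59 (adjusted p = 0.020). Clec4n, the lectin dectin-2, stood at 82.3 and 54.1 CPM against 254 and 388, -2.04 ± 0.60 (adjusted p = 0.044). Mrc1, Pf4 and Cbr2 belong to the rule and are given as values: Mrc1 stood at 954 and 1001 CPM in rich and 1919 and 2206 in poor cells, and Pf4 at 2287 and 1380 against 4518 and 4667. Cd163, Stab1 and Dab2 did not pass, with log2 fold changes of -1.56 ± 0.55, -1.23 ± 0.38 and -1.13 ± 0.37. Apoe, at 32610 and 29058 CPM in rich against 46536 and 52595 in poor cells, did not pass either (-0.64 ± 0.43, adjusted p = 0.63).

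Of the iron and haem list, 8 of 14 genes were tested and 1 passed. Slc40a1, ferroportin, the exporter of cellular iron, had 1 UMI in the rich cells of each library against 25 in 12 of 19 and 32 in 9 of 15 poor cells, -3.81 ± 0.76 (adjusted p = 9.4e-05). Fth1 and Ftl1, the ferritin chains that store iron, had log2 fold changes of -0.18 ± 0.40 and -0.15 ± 0.41. Egfl7, a secreted factor known from endothelium, had no UMI in the 20 rich cells against 21 and 15 in poor cells, at least 6.77-fold lower. The other lower genes were Cstb, a cathepsin inhibitor (-2.22 ± 0.60), Hmgb2, a chromatin protein (-1.76 ± 0.52), and Wfdc17 (-1.54 ± 0.38), whose groups overlapped.

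**Figure D4:**
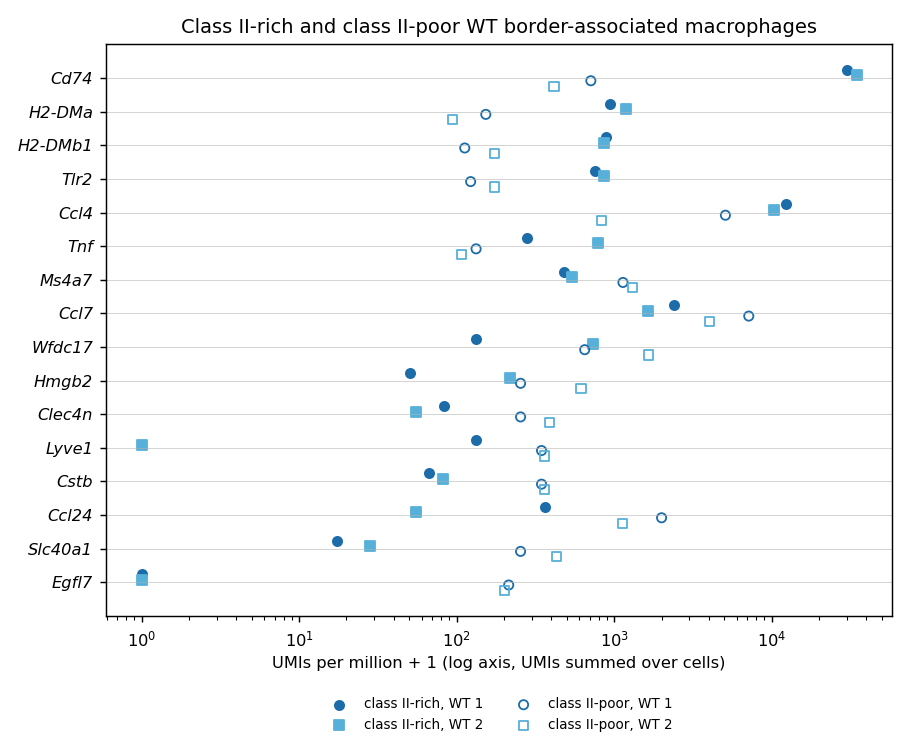
CPM plus 1 (log axis) of 16 of the 17 genes that passed the test between class II-rich (filled) and class II-poor (open) WT members, circles for WT 1 and squares for WT 2. Within each library, filled points lie to the right for the genes from Cd74 to Tnf and to the left below them, with Egfl7 at 0 in both rich sums and Lyve1 at 0 in that of WT 2.

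Markers of other cells are given beside the split. Of the microglial list 0 of 13 tested passed, 12 of them were lower in rich cells and the median was -0.36, and the summed marker share was 0.560 to 2.27% of UMIs in rich and 0.339 to 2.95% in poor cells of WT 1, and 0.129 to 1.86% against 0.357 to 3.02% in WT 2. Dendritic cell markers together took 0 to 0.228% of UMIs in rich and 0.0455 to 0.362% in poor cells of WT 1, and 0.0192 to 0.190% against 0.1001 to 0.357% in WT 2, and the 3 of that list that could be tested were lower without passing. Ccr2, 1 of the 3 monocyte genes of the rule, had 6 UMIs in 3 rich cells and none in poor cells, while Ms4a4c had none in rich and 3 in poor cells. The monocyte list took a median of 0.0447% of UMIs in rich and 0.0683% in poor cells of WT 1, and 0.0432% and 0% in WT 2. The 3 WT members with a monocyte sum of 2, just inside the limit, were class II-rich. The part of these markers in the split was not tested. With DESeq2 in place of edgeR, 3 genes passed (2 higher, 1 lower), Cd74, H2-DMa and Ccl24. With members of at most 1 microglial UMI no gene passed in edgeR, where 345 genes were tested and 62 had an unadjusted p under 0.05.

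Ranked over single WT members, the genes that followed the class II share most closely were Cd74 (Spearman rho 0.92 in WT 1 and 0.89 in WT 2), H2-DMb1 (0.73 and 0.72) and H2-DMa (0.68 and 0.76), then ribosomal protein genes such as Rpl10a (0.62 and 0.45). The opposite end held Cbr2 (-0.71 and -0.64), Ccl24 (-0.65 and -0.61), Lyve1 (-0.45 and -0.68), Cd163 (-0.55 and -0.54) and Egfl7 (-0.50 and -0.51). These are descriptions over 33 and 25 cells, which share their library and the depth of each cell.

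The deficient library was not used for that split and offered the same genes in other cells. H2-Aa, H2-Ab1 and H2-Eb1 are not listed for it, and whether they had no UMI there or were removed by a filter is not known. If their absence is read as no UMI in its 8 members, they lie at least 37.5-fold, 43.0-fold and 28.6-fold below the WT members. Cd74 was present in 7 of the 8 and took 1% or more of UMIs in 5 (62.5%, exact 95% interval 24.5 to 91.5), while 39.4% of the WT 1 members (22.9 to 57.9) and 32.0% of those of WT 2 did (14.9 to 53.5). The intervals overlap. The 5 Cd74-rich deficient cells held 23850 UMIs and the 3 Cd74-poor ones 6396.

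Of the 15 genes other than Cd74 and Ms4a7 that passed in WT, 10 had the same direction between Cd74-rich and Cd74-poor deficient members. The share over all genes was not counted, so this count is not read as a result. Among the 10, Ccl4 and Tnf came mostly from the 2 cells with Rsad2 described below, with 494 of 622 and 16 of 19 UMIs of the Cd74-rich cells. H2-DMb1 had 23 UMIs in the Cd74-rich and none in the Cd74-poor cells, and Tlr2 had 22 and 1. Ccl24 had none in the Cd74-rich cells, where the exact 95% limit is 155 CPM, and 15 in the Cd74-poor ones (2345 CPM, 1313 to 3868). Egfl7 had none and 7. Among the rest, Slc40a1, Cstb and Hmgb2 had the opposite direction, and Lyve1 no UMI in either. These are sums from 1 library with no test, and the intervals cover counting error only.

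Deficient and WT members were compared on the UMIs summed per library, over genes listed in all 3 tables. Of 2618 genes tested, 115 passed (4.39%), 49 of them higher in the deficient members (1.87%) and 66 lower (2.52%), and 6 of the 115 are rule genes. The deficient sum held more Cd74, Ccl3, Ccl4 and Cxcl10, and less Klf2, Jund, Jun, Fos, Lamp1 and Ctsd. With the stricter rule of 8 UMIs from 3 marker genes, which kept 4 of the 8 deficient members, no gene passed in edgeR (269 of 2311 had an unadjusted p under 0.05). Apoe (0.02 ± 0.12) and Ctss (0.01 ± 0.21), 2 of the most abundant transcripts, did not pass. The lone deficient library was assumed to vary like the WT pair, and fewer cells of a kind and less RNA per cell cannot be told apart in such sums. DESeq2 passed 12 genes (3 higher, 9 lower): Rsad2, Ifnb1 and Ccl4 were higher, with Klf2, Jund, Jun, Fos, Atf3, Ier5, Lamp1 and Ctsd among the lower ones.

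Cd74 stood at 11967 and 11401 CPM in WT 1 and WT 2 and at 27706 in the deficient members, 1.18 ± 0.14 on the log2 scale (adjusted p = 2.2e-14). Within Cd74-rich cells alone the levels were 29227, 34658 and 34969 CPM in WT 1, WT 2 and the deficient library, given as values only since these cells were selected on Cd74. H2-DMa (463, 474 and 727 CPM) and H2-DMb1 (391, 384 and 760 CPM) did not pass (0.57 ± 0.40 and 0.90 ± 0.41). Over the class II presentation list, 6 of 15 genes were tested, with 1 higher (Cd74), 1 lower (Lgmn, -0.92 ± 0.26) and a median of 0.74 against -0.16 over all genes.

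Interferon genes came from 2 cells. Rsad2, the antiviral viperin, and Ifnb1, interferon beta itself, had no UMI in any of the 58 WT members and 76 and 54 UMIs in the deficient members, at least 242-fold and 172-fold higher. One deficient cell held 47 Rsad2 and 51 Ifnb1 UMIs and a second held 29 and 3, while the other 6 held none. The same 2 cells gave 45 of the 52 UMIs of Cxcl10, an interferon-induced chemokine, 21 of the 23 of Ifih1, a sensor of viral RNA, 238 of the 310 of Ccl3 and 494 of the 632 of Ccl4. Both were Cd74-rich, and with 6 and 4 UMIs over the marker genes they were the weakest of the deficient members under the rule.

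On the sums, Cxcl10 stood at 216, 24.5 and 1719 CPM (3.64 ± 0.38, adjusted p = 1.0e-18), Ccl4 at 7625, 5022 and 20895 CPM (1.65 ± 0.15, adjusted p = 4.3e-24) and Ccl3 at 5683, 2405 and 10249 CPM (1.26 ± 0.17, adjusted p = 1.3e-10), in the order WT 1, WT 2 and deficient. Without the 2 cells, Ccl4 and Ccl3 had log2 fold changes of -0.20 and -0.51 (adjusted p = 0.63 and 0.24). Of the type I interferon list, 19 of 34 genes were tested, 3 were higher (Rsad2, Ifih1 and Isg15) and none lower, with a median of 0.51, and without the 2 cells none of 15 tested passed. Bst2 and Ifi207, the most abundant of the list after Rsad2, did not pass (0.20 ± 0.36 and 0.51 ± 0.33).

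The chemokine list as a whole had 16 of 24 genes tested, 6 higher and 3 lower (Ccl2, Cx3cr1 and the rule gene Pf4), with a median of 0.15. Without the 2 cells with Rsad2, 1 was higher and 4 were lower, and Cxcl2, called higher on all members (0.54 ± 0.16), was lower and passed (-1.63, adjusted p = 9.1e-12). Cxcl16 (1.63 ± 0.50) was among the higher ones. Ccl2, the monocyte attractant, stood at 7126, 4212 and 1918 CPM (-1.63 ± 0.22, adjusted p = 6.7e-11). It was lower among Cd74-rich cells (-1.36, adjusted p = 0.0085) and among Cd74-poor cells (-2.53, adjusted p = 1.3e-06).

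Part of the early response genes were lower in the deficient members. The list of immediate early and dissociation-stress genes, transcripts that rise within minutes when cells are stimulated or taken out of tissue, had 32 of 35 tested, 11 lower, none higher and 21 not past the test, with a median of -0.68. Klf2, a zinc finger factor that restrains inflammatory genes, stood at 2965, 2674 and 66.1 CPM (-5.45 ± 0.48, adjusted p = 9.3e-27) and had 2 UMIs in all 8 deficient cells. The AP-1 subunit Jund stood at 2995, 2650 and 165 CPM (-4.15 ± 0.40, adjusted p = 1.9e-22), Jun at 7962, 5030 and 1223 CPM (-2.48 ± 0.24, adjusted p = 1.9e-22) and Fos at 7601, 5103 and 2017 CPM (-1.72 ± 0.22, adjusted p = 9.9e-13). Junb, at 4053, 3713 and 2943 CPM, did not pass (-0.47 ± 0.22). Klf2, Jund, Jun and Fos were lower among Cd74-rich and among Cd74-poor cells alone as well.

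Microglial reference cells of the same libraries moved with them. Klf2 stood at 1558, 1084 and 21.6 CPM there, and Jund at 1610, 1047 and 73.7. The difference between the members' and the reference cells' log2 fold changes was 0.03 ± 1.09 for Klf2 and -0.42 ± 0.70 for Jund, neither past the test. For Jun (-1.88 ± 0.33, adjusted p = 2.2e-05) and Atf3 (-1.57 ± 0.35, adjusted p = 0.0034) the difference passed, beside a median of -1.67 over all genes tested, so that Atf3 was no lower than that median. With DESeq2 that median was -0.20, against -1.43 for Atf3. The median mitochondrial share of UMIs was 1.21, 1.11 and 1.77% in the members. With 1 deficient animal, genotype, animal and library cannot be told apart.

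Lysosomal transcripts had 20 of 22 tested, 5 lower and none higher, with a median of -0.62. Lamp1, a membrane protein of the lysosome, stood at 1161, 1685 and 198 CPM (-2.89 ± 0.44, adjusted p = 9.9e-09), with 1271, 1336 and 152 in reference cells. Ctsd, cathepsin D, stood at 3747, 3484 and 1124 CPM (-1.75 ± 0.26, adjusted p = 3.6e-09), and Cst3, a cathepsin inhibitor, at 18757, 16529 and 9456 (-0.97 ± 0.16, adjusted p = 1.2e-07), while reference cells held 11031 to 11686 CPM of Ctsd in every library. Without members holding 10 or more microglial UMIs, Ctsd (-1.09, adjusted p = 0.070) and Cst3 (-0.28, adjusted p = 0.73) no longer passed.

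Microglial markers fell in the same direction: 12 of 14 tested were lower, P2ry12 and Sparc of the rule among them, and none higher, with a median of -2.11, and 0 of 12 passed once the 11 WT members with 10 or more microglial UMIs were left out. Csf1r, the receptor on which macrophages depend, stood at 2117, 2274 and 793 CPM (-1.53 ± 0.30), and without those cells its log2 fold change was -1.22 (adjusted p = 0.052). The summed microglial marker share was 0.339 to 2.95% of UMIs in WT 1 members, 0.129 to 3.02% in WT 2 and 0.217 to 0.608% in the deficient members.

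Identity genes came last. Of the border-associated macrophage list, 18 of 22 genes were tested, 3 were lower and none higher. The rule genes Mrc1 and Pf4, given above as values, were among the lower ones. Lyve1, Cbr2, Cd163 and Bmp2 are not listed in the deficient table. Whether they had no UMI there or were removed by a filter is not known. If their absence is read as 0 in its 8 members, they lie at least 2.41-fold, 3.28-fold, 2.41-fold and 3.14-fold below the WT members. That limit is set by the 30246 UMIs of the deficient sum. Lyve1 occurred in 11 of 33 and 8 of 25 WT members, and Cbr2 in 22 of 33 and 13 of 25. Folr2 (186, 245 and 66.1 CPM), Stab1 (613, 752 and 364) and Dab2 (1558, 1587 and 926) did not pass, nor did Mgl2 at 331, 474 and 760 CPM (0.87 ± 0.40).

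**Figure D5:**
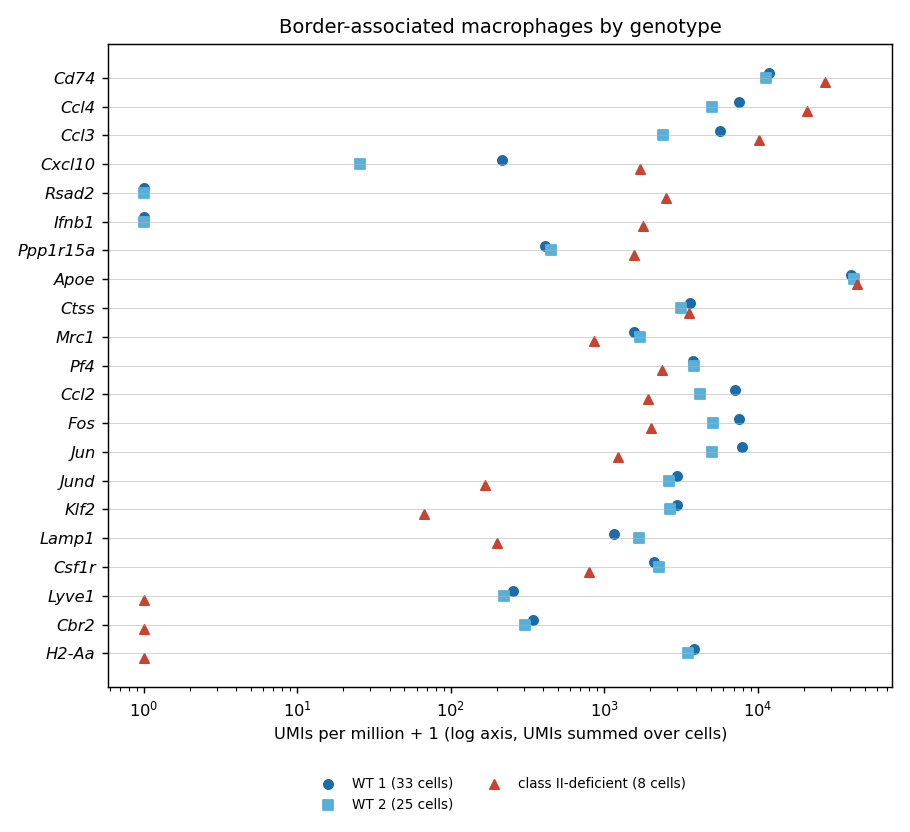
CPM plus 1 (log axis) in the members of WT 1, WT 2 and the class II-deficient library for genes named in the text. The deficient triangles lie to the right of both WT points for the genes from Cd74 to Ppp1r15a, close to them at Apoe and Ctss, far to the left at Jund and Klf2, and at 0 for Lyve1, Cbr2 and H2-Aa. Lyve1, Cbr2 and H2-Aa are not listed for the deficient library and are drawn at 0.

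Whether the genotype difference in members departed from that in microglial reference cells was tested as a difference of differences over 10936 genes, of which 58 passed (0.53%), 12 higher in the members (0.11%) and 46 lower (0.421%). The median over all genes was -1.67 on the log2 scale, since many genes had no UMI in the 8 deficient cells, and calls below it are to be read with that shift. With DESeq2 the median over the same 10936 genes was -0.20, against -1.06 for Ccl2. Cd74 rose in the members relative to the reference cells, where it stood at 78.7, 52.2 and 46.9 CPM (1.22 ± 0.26, adjusted p = 0.0013), and did not pass without the 2 cells with Rsad2 (0.90, adjusted p = 0.053). Ppp1r15a, a stress-response phosphatase subunit, stood at 409, 450 and 1554 CPM in members and at 386, 243 and 136 in reference cells (2.59 ± 0.32, adjusted p = 3.6e-12), and 36 of its 47 UMIs in deficient members lay in the 2 cells with Rsad2, without which it did not pass (0.89, adjusted p = 0.97). Ccl24 stood at 1323, 703 and 496 CPM in members against 11.3, 12.2 and 18.6 in reference cells (-2.15 ± 0.48, adjusted p = 0.0032), and did not pass without the 2 cells (-1.75, adjusted p = 0.070). Ccl2 passed with a negative difference (-1.20 ± 0.28, adjusted p = 0.0078) that lay above the median of all genes. Without the 2 cells with Rsad2, 1 gene was higher and 33 were lower.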

How the data were processed

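UMI counts per gene and barcode were deposited as 1 table per library. Per the submitters' processing notes, Cell Ranger 3.0, Seurat 2.2 and mm10 were used; what filters the tables passed is not stated there. Tables list 13770, 13695 and 12077 genes and hold 16230216, 17293844 and 6616662 UMIs. The members and gene lists were chosen with earlier results of these data known.

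Microglial reference cells had at least 3 UMIs of P2ry12, Tmem119 and Sparc from at least 2 of them, at most 1 over the marker genes, and the same limits on neutrophil and monocyte genes (3876, 4370 and 2184 cells). Counts were summed per library and cell set. Tests used the quasi-likelihood method of edgeR 4.0.16 in R 4.3.3, after TMM scaling and filterByExpr, and Benjamini-Hochberg adjustment ran over all genes tested. Each fit had 1 residual degree of freedom, and nothing says whether the 2 WT libraries are separate mice. Between deficient and WT, p-values rest on the spread between these libraries. In the other comparisons they rest on how the difference between cell sets varied from 1 WT library to the other. The estimates of spread drew on all genes together, so a single gene can vary more than its p-value allows for. DESeq2 1.42.0 was an alternative. CPM in the text are UMIs per 1000000 of the summed cells. Where one side had no UMI, folds are bounds against 3 counts over the group. Share intervals are Clopper-Pearson at 95%, and those of counts are exact Poisson.

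Named genes were the 20 leading genes over reference cells, the 10 largest changes in each direction with a mean of 100 CPM and no overlap, the 3 most abundant members and the largest change of each list described, the class II genes and the rule genes; Ccl24, Ccl2, Jun and Atf3 in the difference of differences, other called genes named and the genes in Cd74-rich deficient cells were chosen after their values were seen. Rich and poor cells come from the same libraries, so the library is a block there. On simulated counts of the deficient comparison (2618 genes), 97.6% of 4-fold rises and 76.4% of 4-fold falls were recovered, and 39.6% of 2-fold rises and 20.4% of 2-fold falls. Only well-covered genes were changed there, and all counts were drawn at the common dispersion of the same fit. The rates thus do not cover low genes or changes that come from few cells. Results for some genes that passed are not reported here.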

Additional observations from a re-analysis of the deposited data

Results flagged for a closer look

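The change from WT to deficient differed between border-associated macrophages and microglial reference cells, by the test of that difference, for these genes with UMIs in every sum (log2 differences of the 2 changes, members less reference). Cxcl10 (3.61), Ifih1 (4.52), Ppp1r15a (2.59), Nfkb1 (1.96), Ccl4 (1.495), Ccl3 (1.48) and Cd74 (1.22) were higher in the members. Without the 2 deficient cells with Rsad2 none of these passed (adjusted p of 0.053 for Cd74 and 0.97 for the others), and Nfkb1 (-0.23), Ccl4 (-0.31) and Ccl3 (-0.24) turned negative. Under the stricter rule Cxcl10 (-0.39) and Ccl3 (-0.0713) did. Nfkb1, an NF-kappaB subunit, stood at 114, 204 and 794 CPM in members of WT 1, WT 2 and the deficient library and at 137 to 146 in reference cells. Olfml3 (-4.17) and Cd9 (-3.79), a secreted protein and a tetraspanin abundant in microglia, were lower, with 62, 41 and 1 UMIs and 62, 47 and 1 UMIs in the members, and without the 11 WT members of 10 or more microglial UMIs they did not pass (Olfml3 -2.51, Cd9 -2.24, adjusted p = 1.0 for both).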

How the results depend on the processing

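Every deficient value rests on 8 cells of 1 library, and rich cells on 20, so low genes were often untested. Leaving out WT replicate 1 or 2 left no residual degree of freedom. Directions there were kept by all 30, 70 and 46 gene values of the 3 comparisons. This outcome was set by the selection and gives no support, since the named genes came from calls whose direction already held against each WT library. In the order higher and lower, counts were 7 and 10 between rich and poor cells, 8 and 12 without the replicate block, 5 lower without a filter on low counts, 0 and 0 with at most 1 microglial UMI, 4 and 2 with a single split at 0.5%, 1 and 1 after thinning to 1000 UMIs, 16 lower without cells holding dendritic or B cell markers, 3 and 6 without the monocyte limit and 2 and 1 in DESeq2. Between deficient and WT they were 49 and 66, then 26 higher without a filter, 0 and 0 (269 at unadjusted p under 0.05) with the stricter rule of 8 UMIs from 3 marker genes, 3 and 2 with at most 1 microglial UMI, 3 and 18 after thinning, 1 and 14 in Cd74-poor cells, 13 and 33 in Cd74-rich cells, 20 and 32 without members of 10 or more microglial UMIs and 3 and 9 in DESeq2. For the difference of differences (12 and 46) they were 0 higher with the stricter rule, 6 and 2 with at most 1 microglial UMI, 20 lower without the monocyte limit, 22 lower without members of 10 or more microglial UMIs, 1 higher without the 2 cells with Rsad2 and 6 and 16 in DESeq2.

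Shares moved to 0.323% (at most 1 microglial UMI) and 1.08% (without the monocyte limit) in WT 1 and to 0.321% (at most 1 microglial UMI) in WT 2, and the stricter rule gave 0.691, 0.471 and 0.177% in WT 1, WT 2 and the deficient library. Reversed between deficient and WT were Ccl3 (-0.0508 stricter rule, -1.06 Cd74-poor, -0.51 without the 2 cells), Ccl4 (-1.69 Cd74-poor, -0.20 without the 2 cells), Cd74 (-0.0564 Cd74-rich), Cxcl10 (-0.10 stricter rule, -6.56 Cd74-poor) and Cxcl2 (-1.63 stricter rule, -1.24 Cd74-poor, -1.63 without the 2 cells, where it passed). In the difference of differences these were Ccl3 (-0.0713 stricter rule, -0.24 without the 2 cells), Ccl4 (-0.31) and Nfkb1 (-0.23) without the 2 cells, and Cxcl10 (-0.39 stricter rule). The cause was not tested. Settings without the monocyte limit, members of 10 or more microglial UMIs or the 2 cells were chosen after seeing the data. No paired analysis was possible between deficient and WT because the labels of the deficient library give no replicate number.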
